A study of Homo sapiens with 30 samples.

Results

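The genes described here are 10 genes of cystine import, ferroptosis defence and iron handling, SLC7A11, SLC3A2, GPX4, AIFM2, ACSL4, HMOX1, FTH1, FTL, TFRC and SLC40A1, chosen by symbol out of 61471 genes in the expression tables of 2 human glioblastoma cell lines, U87-MG (U87) and U251-MG (U251). All 10 had a row in both tables and passed the filter on low values in both lines, SLC40A1 in U87 only through D28WO, so its U87 values are given as a description and counted in no call. RNA was sequenced from cells kept without IFN-γ and collected at day 3 (Untreated), from cells under IFN-γ collected at day 3, 14 or 28 (named D3, D14, D28), and from cells withdrawn from IFN-γ at day 14 and collected at day 28 (D28WO). The labels give a dose of 1 µg/mL in the protocol and 1 µL/mL, a volume, in the sample characteristics, whereas the study's methods state a lower dose and a baseline before treatment for Untreated. Both lines are established tumour lines with no engineered allele, grown in the same serum medium, and they were not re-authenticated after receipt. U251 is represented by 15 libraries, 3 per group, and U87 by 13, since a name shared by 2 U87 columns matched neither to a sample, which left D3 and D14 with 2 libraries each. No untreated cells were collected at day 14 or day 28. Exposure and time in culture therefore cannot be told apart in comparisons of D14, D28 and D28WO with Untreated. By the labels D3 and Untreated share a collection day, as do D28WO and D28. If Untreated was a baseline before treatment, as the study's methods state, the same limit holds for D3 against Untreated.

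Ferroptosis is a form of cell death driven by iron-dependent peroxidation of membrane phospholipids. System xc−, built from the transporter SLC7A11 and its chaperone SLC3A2, brings in cystine for glutathione synthesis in exchange for glutamate, and GPX4 uses glutathione to reduce lipid hydroperoxides, while AIFM2 (FSP1) regenerates reduced coenzyme Q at membranes and ACSL4 supplies the polyunsaturated lipids that are oxidized. Iron enters through the transferrin receptor TFRC, is released from heme by HMOX1, is stored in ferritin (FTH1 and FTL) and leaves through ferroportin (SLC40A1). In several tumour cell types IFN-γ from T cells is known to lower SLC7A11 and SLC3A2, and in gliomas system xc− is known as a source of released glutamate.

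The values are TPM (transcript levels scaled per length and to a fixed library total), which hold no read depth, and no limit of detection can be set for genes listed at 0. Libraries held 24223 to 30246 genes above 0, and Untreated U87 libraries held 24223 to 25459. A gene was called changed with a Benjamini-Hochberg adjusted p under 0.05 in limma over all genes tested, 22918 in U87 and 23667 in U251, and fold changes are on the log2(TPM + 1) scale. The median fold change of all genes against Untreated was 0.20 (D3), 0.15 (D14), 0.19 (D28) and 0.25 (D28WO) in U87 and 0.13, 0.096, 0.16 and 0.015 in U251 in the same order, and changes relative to it are given for the main results. The study describes replicates as independent cultures, and p-values measure the spread between them. By its methods cultures were split at day 14 into D28 and D28WO, so p-values for D28WO against D28 ignore shared parent cultures. In bulk RNA, a change in the share of cells that express a gene and a change in RNA per cell cannot be told apart. CD44 and VIM, mesenchymal and glial markers, were at 471 to 732 and 984 to 1459 TPM in U87 libraries. In U87, SOX2 was listed at 0 to 0.411 TPM and GFAP reached 19.1. GFAP was at 222 to 1309 TPM in U251.

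The response of IRF1, a transcription factor that IFN-γ induces, did not follow the labels at all times. In U87, IRF1 was at 130.1 to 136 TPM in Untreated libraries, 445 to 450.1 in the D3 libraries, 109.8 to 134 in D14, 443 to 539 in D28 and 457 to 545 in D28WO. The libraries labelled D14 were at the Untreated level and those labelled D28WO, withdrawn from IFN-γ, were at the D28 level. IRF1 had a log2 fold change of -0.13 at D14 and of 1.93 at D28WO against Untreated in U87. In U251, IRF1 was at 137 to 145 TPM in Untreated, 287 to 321 at D14 and 588 to 663 at D28WO. Its log2 fold changes in U251 were 2.04 (D3), 1.08 (D14), 2.08 (D28) and 2.13 (D28WO). The 4 check genes (with GBP1, PSMB9 and TAP1) were called higher in 0 of 4 cases at D14 in U87 (limma, lowest unadjusted p = 0.161) and in 4 of 4 at D28WO in both lines. Whether libraries labelled D14 and D28WO were exchanged was not tested, and an exchange would change what their values describe. Results for D14 and D28WO are therefore those of libraries so labelled, and the other comparisons were also fitted without them. Without the libraries labelled D14, 18 of 19 member calls that could be refitted in U87 and 29 of 29 in U251 kept significance. Without those labelled D28WO, 7 of 10 and 30 of 31 did. A fold change depends only on the groups compared, so direction could not change in these refits. The refits therefore do not test whether libraries were exchanged.

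Of the 9 members other than SLC40A1, U87 had 3 called at D3 against Untreated, 2 higher and 1 lower (of all genes tested 16.7% were called, 12.4% higher and 4.28% lower). At D14 1 was called, lower (5.16%, 4.14% higher and 1.02% lower), and at D28 4, of which 3 were higher (23.8%, 17.2% and 6.55%). At D28WO 6 were called, 4 higher and 2 lower (42%, 28.6% and 13.4%). Of all 10 members, U251 had 9 called at D3, 7 higher and 2 lower (40.9% of all genes, 24.9% higher and 16% lower), and 5 at D14, 4 of them higher (21.2%, 13.8% and 7.31%). At D28 9 were called, 6 higher and 3 lower (40.6%, 25.9% and 14.7%), and at D28WO 7, 6 of them higher (27.7%, 14.3% and 13.4%). With the further limit of a 2-fold change that the study used, 0, 0, 0 and 3 members of U87 passed (6.23%, 2.1%, 7.38% and 14.9% of all genes) and 3, 2, 4 and 1 of U251 (14.3%, 5.76%, 15.2% and 7.45%). The members' median log2 fold change in U87 was 0.20, -0.046, 0.18 and 0.046, in the order D3, D14, D28, D28WO, and in U251 0.43, 0.17, 0.37 and 0.61. With median-ratio size factors the U87 splits became 0 higher and 1 lower at D3, 1 and 2 at D28, and 4 and 4 at D28WO, and with quantile normalization 5 and 1 at D28WO. In U251 median-ratio size factors gave 3 higher and 3 lower at D14 and 6 and 2 at D28WO. Between treated groups, U87 had 1 member called at D14 against D3, lower (4.79% of all genes, 1.47% higher and 3.32% lower), 1 at D28 against D14, higher (4.06%, 2.94% and 1.12%), and 6 at D28WO against D28, 4 higher and 2 lower (18.3%, 9.9% and 8.44%). Of these 0, 0 and 1 passed the 2-fold limit (2.63%, 2.12% and 5.53%). U251 had 4 called in each, with 1 higher and 3 lower (25.5%, 12.8% and 12.6%), 3 higher and 1 lower (20.8%, 11.3% and 9.48%), and 3 higher and 1 lower (29.1%, 10.3% and 18.8%), and 0, 0 and 1 passed the 2-fold limit (6.49%, 5.84% and 9.26%). Groups without overlap between libraries are common at this size, in U87 in 47%, 39.4%, 36.3% and 53.2% of all genes in the comparisons with Untreated and in 48.5%, 32.6% and 36.5% in the other comparisons. In U251 they made up 48%, 36.7%, 51.3% and 41%, and 37.4%, 37.8% and 44.4%. In both lines SLC7A11, SLC3A2, AIFM2 and FTH1 were called higher at D28WO against Untreated, and the plot of fold changes gives every member and comparison.

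**Figure D1:**
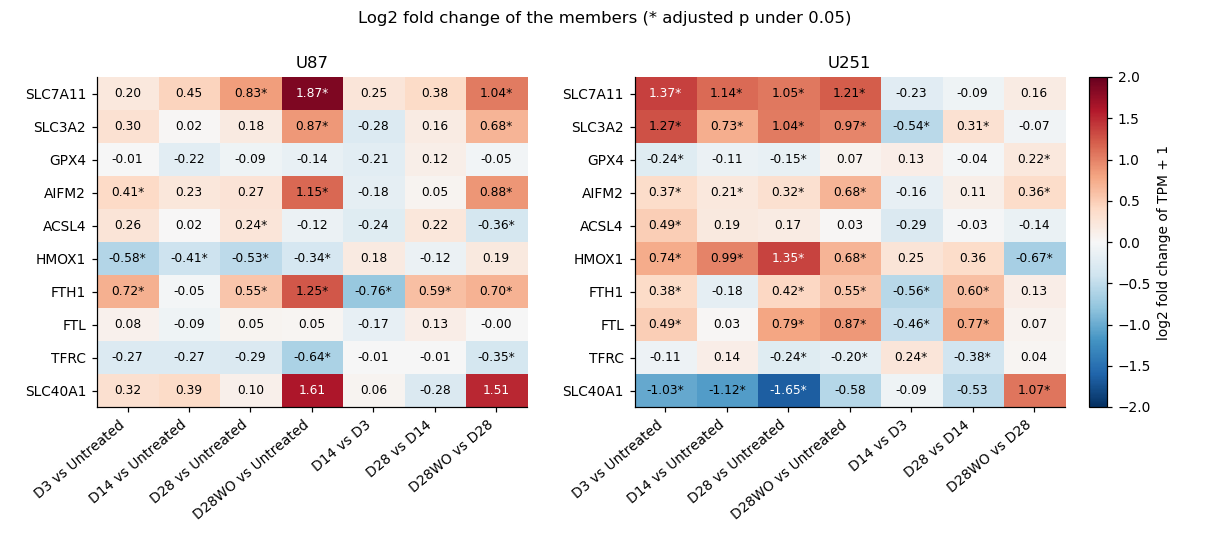
Log2 fold change on the log2(TPM + 1) scale (colour and number) of the 10 members (rows) in 7 comparisons (columns) in U87 (left) and U251 (right), with an asterisk at an adjusted p under 0.05 (limma), not used for U87 SLC40A1. SLC7A11 is positive against Untreated throughout, between 0.20 and 1.87 (U87 at D3 turns to -0.17 with quantile normalization), and HMOX1 against Untreated is negative in U87 and positive in U251.

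SLC7A11 (chromosome 4, 138164097 to 138242349 of GRCh38, minus strand), the cystine-transporting subunit, had its lowest TPM in Untreated cells of both lines, though quantile normalization turned the U87 difference at D3 from 0.20 to -0.17 (log2). SLC7A11 in U87 was at 15.8, 14.6 and 12.5 TPM in Untreated, 16.0 and 17.1 in the D3 libraries, 20.1 and 19.7 in D14, 23.2, 23.5 and 32.9 in D28 and 61.3, 52.2 and 51.2 in D28WO. The 5 groups did not overlap with their neighbours, in the order Untreated, D3, D14, D28 and D28WO, but only D28 and D28WO were called against Untreated. SLC7A11 rose from 14.3 ± 1.67 to 26.5 ± 5.53 TPM at D28 (log2 fold change 0.83 ± 0.15 SE, adjusted p = 0.00221) and to 54.9 ± 5.57 TPM at D28WO (log2 fold change 1.87 ± 0.15 SE, adjusted p = 2.6e-06). Relative to the median of all genes these changes were 0.64 and 1.62, and with quantile normalization the change at D28 was 0.48. D28WO exceeded D28 (log2 fold change 1.04 ± 0.15 SE, adjusted p = 0.000779).

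SLC7A11 in U251 was at 25.9, 25.9 and 20.7 TPM in Untreated, 70.9, 61.3 and 59.7 in the D3 libraries, 46.5, 63.9 and 53.6 in D14, 59.0, 52.7 and 42.6 in D28 and 60.0, 55.4 and 56.1 in D28WO. All 12 treated or withdrawn libraries lay above the 3 Untreated libraries, and the 4 later groups overlapped with their neighbours in level. SLC7A11 rose at D3 (log2 fold change 1.37 ± 0.14 SE, adjusted p = 2.5e-06), D14 (log2 fold change 1.14 ± 0.14 SE, adjusted p = 5.1e-05), D28 (log2 fold change 1.05 ± 0.14 SE, adjusted p = 3e-05) and D28WO (log2 fold change 1.21 ± 0.14 SE, adjusted p = 1.3e-05). Relative to all genes the rises were 1.24, 1.04, 0.89 and 1.20. D28WO and D28 were not separated (95% interval of the difference -0.13 to 0.45, log2). SLC7A11-AS1, an antisense gene that overlaps the end of SLC7A11, reached 2.96 TPM in U87 and 6.01 in U251, and whether the counting used strand is not given in the sources used here.

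SLC3A2 (chromosome 11, 62856004 to 62888880, plus strand) encodes the CD98 heavy chain, which SLC7A11 needs to reach the membrane and which also pairs with other amino acid transporters. RefSeq start sites (GRCh38.p14) were held for 7 of the 10 members, in 11 windows, and not for SLC7A11, HMOX1 and FTH1. The 250 bases before each start were searched on both strands for 4 motifs, TGACNNNGC (the core of the antioxidant response element that NRF2 binds), TTCNNNGAA (the gamma-activated site of the IFN-γ response), GAAA, any 2 bases and GAAA (the core of the interferon-stimulated response element) and TGATGNAA (the core of the amino acid response element that ATF4 binds). The antioxidant core occurred in 2 member windows, of AIFM2 and SLC3A2, and in 10.9% of all 35116 windows. The gamma-activated letters occurred in 2 member windows, both of SLC3A2, and in 6.57% of all windows. The other motifs occurred in 0 member windows and in 3.02% and 3.14% of all. Matched letters are printed in capitals. Of the windows with a match, only those of SLC3A2 kept a long enough stretch that was free of annotated exon bases and held a match. These 2 stretches are printed, without the exon bases. Both lie within the annotated gene, before internal start sites, on the plus strand.
SLC3A2, chr11:62880646-62880862: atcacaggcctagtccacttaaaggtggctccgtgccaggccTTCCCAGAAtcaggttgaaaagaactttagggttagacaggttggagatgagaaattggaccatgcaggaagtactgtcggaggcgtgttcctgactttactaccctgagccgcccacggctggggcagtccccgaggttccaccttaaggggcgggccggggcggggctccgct
SLC3A2, chr11:62881454-62881697: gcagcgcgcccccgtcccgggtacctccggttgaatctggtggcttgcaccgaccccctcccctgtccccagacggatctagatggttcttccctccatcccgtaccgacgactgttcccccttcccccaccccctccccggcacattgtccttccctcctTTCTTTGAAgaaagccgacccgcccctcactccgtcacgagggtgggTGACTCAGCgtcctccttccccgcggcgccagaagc
In the first stretch the capitals mark TTCCCAGAA, 208 to 200 bases before its start. In the second they mark TTCTTTGAA, 84 to 76 bases before the start, and TGACTCAGC, 37 to 29 bases before it, whose letters TGACTCA are also those of the AP-1 site. The AIFM2 match, GCTGAGTCA, lay 22 to 14 bases before the RefSeq start. A match of letters is a description of the window, and binding was not measured.

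SLC3A2 in U87 was at 117, 122 and 132 TPM in Untreated, 159 and 146 in the D3 libraries, 136 and 115 in D14, 124, 131 and 171 in D28 and 229, 237 and 213 in D28WO. The groups from Untreated to D28 overlapped with their neighbours in level, and the 3 D28WO libraries lay above all others. SLC3A2 rose in U87 at D28WO against Untreated (log2 fold change 0.87 ± 0.11 SE, adjusted p = 0.000101, 0.62 relative to all genes) and against D28 (log2 fold change 0.68 ± 0.11 SE, adjusted p = 0.00181).

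SLC3A2 in U251 was at 132, 131 and 137 TPM in Untreated, 327, 307 and 332 in the D3 libraries, 213, 228 and 225 in D14, 287, 287 and 253 in D28 and 249, 267 and 273 in D28WO. Untreated was below every other group, D14 was below D3, D28 and D28WO, and D28 and D28WO overlapped. SLC3A2 rose at D3 (log2 fold change 1.27 ± 0.058 SE, adjusted p = 1.2e-09), D14 (log2 fold change 0.73 ± 0.058 SE, adjusted p = 1.4e-06), D28 (log2 fold change 1.04 ± 0.058 SE, adjusted p = 8.4e-09) and D28WO (log2 fold change 0.97 ± 0.058 SE, adjusted p = 2.6e-08). It fell from D3 to D14 (log2 fold change -0.54 ± 0.058 SE, adjusted p = 1.7e-05) and rose again from D14 to D28 (log2 fold change 0.31 ± 0.058 SE, adjusted p = 0.00181). The ratio of SLC3A2 to SLC7A11 TPM in U87 was 8.76 ± 1.59 in Untreated, 9.23 ± 1.01 in D3, 6.33 ± 0.662 in D14, 5.36 ± 0.187 in D28 and 4.14 ± 0.408 in D28WO. In U251 it was 5.58 ± 0.879, 5.06 ± 0.476, 4.11 ± 0.513, 5.41 ± 0.541 and 4.61 ± 0.402 in the same order.

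**Figure D2:**
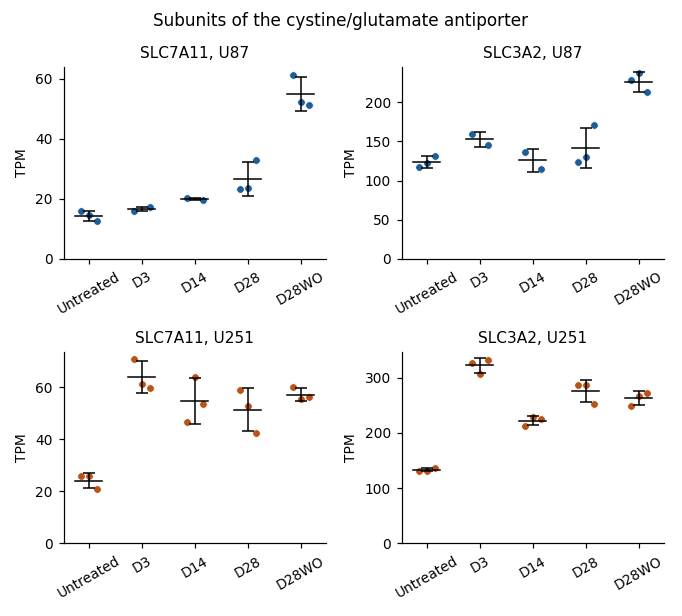
TPM of SLC7A11 (left) and SLC3A2 (right) in U87 (top) and U251 (bottom) by group, 1 point per library with mean and SD as bars. In U87 the D28WO libraries lie highest, and in U251 every group lies above Untreated.

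GPX4 (chromosome 19, 1103982 to 1106791, plus strand), the glutathione peroxidase that reduces lipid hydroperoxides, had the narrowest spread of group means among the members in U251. GPX4 in U87 was at 222, 227 and 238 TPM in Untreated, 235 and 220.5 in the D3 libraries, 199 and 195 in D14, 208, 208 and 228 in D28 and 206, 209 and 207 in D28WO. GPX4 was called in none of the 7 comparisons in U87 (limma), where its adjusted p was 0.0599 at the lowest and the unadjusted p was under 0.05 in 3 of 7. GPX4 in U251 was at 285, 301 and 302 TPM in Untreated, 234, 256 and 262 in the D3 libraries, 269, 270.3 and 283 in D14, 256, 269 and 276 in D28 and 316, 313 and 304 in D28WO. The D3, D14 and D28 libraries lay below all Untreated libraries, and those of D28WO above them. GPX4 fell in U251 at D3 (log2 fold change -0.24 ± 0.05 SE, adjusted p = 0.00165) and D28 (log2 fold change -0.15 ± 0.05 SE, adjusted p = 0.0295) and rose from D28 to D28WO (log2 fold change 0.22 ± 0.05 SE, adjusted p = 0.00507). The change at D28 turned to 0.0094 with quantile normalization, and leaving out Untreated replicate 2 or 3, or D28 replicate 1 or 2, ended the call (log2 fold change -0.15 to -0.12).

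AIFM2 (chromosome 10, 70098223 to 70132934, minus strand), the GPX4-independent suppressor of ferroptosis, was highest at D28WO in both lines. AIFM2 in U87 was at 32.1, 32.3 and 31.2 TPM in Untreated, 42.1 and 43.0 in the D3 libraries, 38.4 and 36.6 in D14, 32.4, 42.3 and 42.3 in D28 and 73.5, 74.4 and 68.5 in D28WO. All 10 exposed or withdrawn U87 libraries lay above the Untreated libraries, and the D28WO libraries lay above all others. AIFM2 rose in U87 at D28WO against Untreated (log2 fold change 1.15 ± 0.10 SE, adjusted p = 6.7e-06, 0.90 relative to all genes) and against D28 (log2 fold change 0.88 ± 0.10 SE, adjusted p = 0.000264). It was also called at D3 (log2 fold change 0.41 ± 0.11 SE, adjusted p = 0.0325), and leaving out any 1 of the 5 libraries of that comparison ended the call (adjusted p 0.0524 to 0.134).

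AIFM2 in U251 was at 50.4, 51.4 and 54.5 TPM in Untreated, 66.5, 63.4 and 72.6 in the D3 libraries, 62.8, 58.5 and 59.3 in D14, 64.9, 65.5 and 64.8 in D28 and 82.5, 87.8 and 81.3 in D28WO. Untreated was below every other group and D28WO above every other. AIFM2 rose at D3 (log2 fold change 0.37 ± 0.063 SE, adjusted p = 0.000381), D28 (log2 fold change 0.32 ± 0.063 SE, adjusted p = 0.00121) and D28WO (log2 fold change 0.68 ± 0.063 SE, adjusted p = 2.4e-06), and from D28 to D28WO (log2 fold change 0.36 ± 0.063 SE, adjusted p = 0.000777). It was called at D14 (log2 fold change 0.21 ± 0.063 SE, adjusted p = 0.0338), which leaving out Untreated replicate 1 or 2, or D14 replicate 1 or 3, ended (log2 fold change 0.17 to 0.22), as did both other scalings (0.14 with quantile normalization, 0.12 with median-ratio size factors).

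ACSL4 (chromosome X, 109624244 to 109733403, minus strand), which activates arachidonic and related acids for phospholipids, moved little. ACSL4 in U87 was at 95.2, 90.8 and 113 TPM in Untreated, 118 and 119 in the D3 libraries, 98.7 and 102 in D14, 119, 120.4 and 112 in D28 and 89.7, 92.2 and 91.9 in D28WO. D28WO lay below D28 without overlap (log2 fold change -0.36 ± 0.078 SE, adjusted p = 0.00848). The call at D28 against Untreated (log2 fold change 0.24 ± 0.078 SE, adjusted p = 0.0443), whose libraries overlapped, was 0.05 relative to all genes, and leaving out Untreated replicate 1 or 2, or D28 replicate 1 or 2, ended it (log2 fold change 0.18 to 0.23). ACSL4 in U251 was at 93.7, 73.8 and 94.1 TPM in Untreated, 122, 121 and 123 in the D3 libraries, 81.5, 112 and 108 in D14, 90.1, 100.5 and 102 in D28 and 92.6, 75.4 and 99.2 in D28WO. The D3 libraries lay above all others, and ACSL4 rose there against Untreated (log2 fold change 0.49 ± 0.13 SE, adjusted p = 0.00773) and was called in no other comparison (limma, unadjusted p under 0.05 in 2 of 7).

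**Figure D3:**
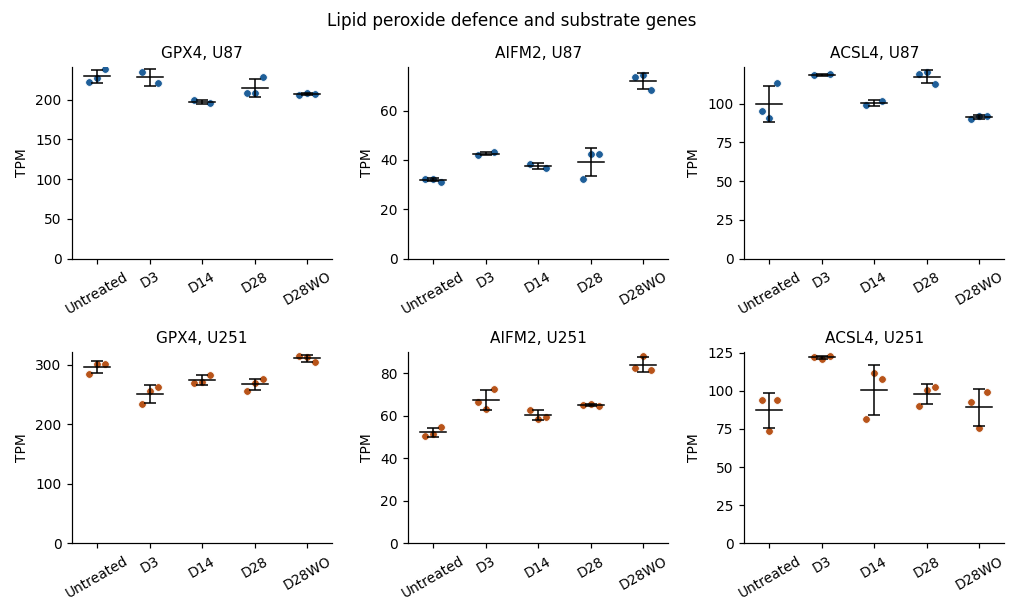
TPM of GPX4, AIFM2 and ACSL4 (left to right) in U87 (top) and U251 (bottom) by group, 1 point per library with mean and SD as bars. AIFM2 is highest at D28WO in both lines, and GPX4 stays between 195 and 316 TPM.

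HMOX1 (chromosome 22, 35380361 to 35394214, plus strand), the inducible heme oxygenase that frees iron from heme, moved in opposite directions in the lines. HMOX1 in U87 was at 328, 326 and 398 TPM in Untreated, 212 and 255 in the D3 libraries, 269 and 258 in D14, 229, 248 and 249 in D28 and 282, 274 and 272 in D28WO. All 10 other libraries lay below the Untreated libraries. HMOX1 fell in U87 at D3 (log2 fold change -0.58 ± 0.097 SE, adjusted p = 0.00235), D28 (log2 fold change -0.53 ± 0.087 SE, adjusted p = 0.00151) and D28WO (log2 fold change -0.34 ± 0.087 SE, adjusted p = 0.00837), the last at -0.078 with quantile normalization. At D14 (log2 fold change -0.41 ± 0.097 SE, adjusted p = 0.0373) the call was lost without Untreated replicate 3 or without D14 replicate 2 or 3 (log2 fold change -0.44 to -0.31).

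HMOX1 in U251 was at 68.0, 61.8 and 49.1 TPM in Untreated, 113, 80.6 and 107 in the D3 libraries, 117, 112 and 127 in D14, 148, 156 and 152 in D28 and 101, 91.0 and 95.4 in D28WO. All 12 other libraries lay above Untreated, D28 lay above every other group, and D3, D14 and D28WO overlapped in part. HMOX1 rose at D3 (log2 fold change 0.74 ± 0.12 SE, adjusted p = 0.000301), D14 (log2 fold change 0.99 ± 0.12 SE, adjusted p = 8.2e-05), D28 (log2 fold change 1.35 ± 0.12 SE, adjusted p = 1.2e-06) and D28WO (log2 fold change 0.68 ± 0.12 SE, adjusted p = 0.000863), and D28WO was below D28 (log2 fold change -0.67 ± 0.12 SE, adjusted p = 0.00119). The lines were normalized in separate tables, so the difference between them was not tested.

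FTH1 (chromosome 11, 61959718 to 61967634, minus strand), the ferritin heavy chain that oxidizes iron for storage, was the most abundant member in both lines. FTH1 in U87 was at 1395, 1019 and 1054 TPM in Untreated, 2021 and 1749 in the D3 libraries, 1126 and 1090.4 in D14, 1569, 1644 and 1815 in D28 and 2939, 2698 and 2540.1 in D28WO. D14 overlapped with Untreated, D3 and D28 lay above both, and D28WO lay above all. FTH1 rose in U87 at D28WO against Untreated (log2 fold change 1.25 ± 0.11 SE, adjusted p = 6.9e-06, 1.00 relative to all genes) and against D28 (log2 fold change 0.70 ± 0.11 SE, adjusted p = 0.00147), the latter at 0.14 with quantile normalization. It was called higher at D3 (log2 fold change 0.72 ± 0.12 SE, adjusted p = 0.00305), which was lost without D3 replicate 2 (0.61, adjusted p = 0.0558), and at D28 (log2 fold change 0.55 ± 0.11 SE, adjusted p = 0.00524). With median-ratio size factors the changes at D3 and D28 were 0.53 and 0.36 and not called. The fall from D3 to D14 (log2 fold change -0.76 ± 0.14 SE, adjusted p = 0.00703) was lost without D3 replicate 2 or D14 replicate 2 or 3 (log2 fold change -0.79 to -0.66). The rise from D14 to D28 (log2 fold change 0.59 ± 0.12 SE, adjusted p = 0.019) was lost without D14 replicate 2 or 3 or D28 replicate 3 (0.54 to 0.62).

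FTH1 in U251 was at 1014, 960.1 and 1019 TPM in Untreated, 1324, 1253 and 1322 in the D3 libraries, 876, 825 and 944 in D14, 1453, 1339 and 1222 in D28 and 1511, 1404 and 1476 in D28WO. D14 was the lowest group, below Untreated, and D28 and D28WO overlapped. FTH1 rose at D3 (log2 fold change 0.38 ± 0.063 SE, adjusted p = 0.000271), D28 (log2 fold change 0.42 ± 0.063 SE, adjusted p = 0.000118) and D28WO (log2 fold change 0.55 ± 0.063 SE, adjusted p = 1.7e-05). It fell from D3 to D14 (log2 fold change -0.56 ± 0.063 SE, adjusted p = 2.4e-05) and rose from D14 to D28 (log2 fold change 0.60 ± 0.063 SE, adjusted p = 1.5e-05). FTH1 has processed pseudogenes with near-identical sequence, and the 27 listed with its symbol held 1.16% to 3.61% of the summed TPM of gene and pseudogenes in a library, so some reads may be shared.

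FTL (chromosome 19, 48965309 to 48966879, plus strand), the ferritin light chain, followed FTH1 in U251 and not in U87. FTL in U87 was at 536, 447 and 511 TPM in Untreated, 545 and 506 in the D3 libraries, 472 and 463 in D14, 506, 500.1 and 532 in D28 and 549.7, 504 and 485 in D28WO, and all neighbouring groups overlapped. The log2 fold change of FTL in U87 at D28WO against Untreated was 0.046 (95% interval -0.11 to 0.20). It was 0.40 with quantile normalization, which called it higher, and -0.18 with median-ratio size factors, so its direction depended on the scaling.

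FTL in U251 was at 552, 543 and 565 TPM in Untreated, 783, 745 and 799 in the D3 libraries, 579, 537 and 579 in D14, 1004, 977 and 904 in D28 and 1063, 991 and 983 in D28WO. Untreated and D14 overlapped, D3 lay above both, and D28 and D28WO lay above D3. FTL rose at D3 (log2 fold change 0.49 ± 0.051 SE, adjusted p = 4.2e-06), D28 (log2 fold change 0.79 ± 0.051 SE, adjusted p = 3e-08) and D28WO (log2 fold change 0.87 ± 0.051 SE, adjusted p = 2e-08). It fell from D3 to D14 (log2 fold change -0.46 ± 0.051 SE, adjusted p = 2.1e-05) and rose from D14 to D28 (log2 fold change 0.77 ± 0.051 SE, adjusted p = 2e-07). The 17 listed FTL pseudogenes held at most 1.43% of the summed TPM.

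The ratio of the ferritin chains, which is free of the scaling of a library, was above its Untreated values at D28WO in U87 and below them in U251. In U87 the ratio of FTH1 to FTL TPM was 2.32 ± 0.273 in Untreated, 3.58 ± 0.177 in D3, 2.37 ± 0.0203 in D14, 3.27 ± 0.156 in D28 and 5.31 ± 0.0672 in D28WO. The lowest D28WO ratio in U87, 5.23, was above the highest ratio of all other U87 libraries, 3.71. In U251 the ratio was 1.80 ± 0.0346 in Untreated, 1.68 ± 0.0187 in D3, 1.56 ± 0.0615 in D14, 1.39 ± 0.0508 in D28 and 1.45 ± 0.0478 in D28WO, and every treated or withdrawn library lay below the Untreated libraries. The ratios are given as values with no test, and an exact permutation test of 3 libraries against 3 cannot give a p below 0.1.

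TFRC (chromosome 3, 196012511 to 196082153, minus strand) encodes transferrin receptor 1, whose mRNA is known to be stabilized when cellular iron is low. TFRC in U87 was at 159, 162 and 197 TPM in Untreated, 133 and 153 in the D3 libraries, 139 and 144 in D14, 142, 142 and 138 in D28 and 99.1, 109 and 123 in D28WO. All other libraries lay below Untreated, and the D28WO libraries lay below all others. TFRC fell in U87 at D28WO against Untreated (log2 fold change -0.64 ± 0.098 SE, adjusted p = 0.000331). Its call against D28 (log2 fold change -0.35 ± 0.098 SE, adjusted p = 0.029) was lost without any 1 of the D28 libraries or D28WO replicate 1 or 2 (log2 fold change -0.36 to -0.27). TFRC in U251 was at 128, 133 and 137 TPM in Untreated, 131, 123 and 116 in the D3 libraries, 134, 147 and 158 in D14, 117, 106 and 114 in D28 and 114, 121 and 112 in D28WO. The D28 and D28WO libraries lay below Untreated, and D14 was the highest group. TFRC fell from D14 to D28 (log2 fold change -0.38 ± 0.069 SE, adjusted p = 0.00149) and was called lower at D28 (log2 fold change -0.24 ± 0.069 SE, adjusted p = 0.013), which was lost without D28 replicate 2 (-0.20, adjusted p = 0.0634). The calls at D28WO (log2 fold change -0.20 ± 0.069 SE, adjusted p = 0.0449) and from D3 to D14 (log2 fold change 0.24 ± 0.069 SE, adjusted p = 0.0184) were lost without 5 of 6 libraries in turn (every one but D28WO replicate 2; -0.22 to -0.17) and without D3 replicate 3 or D14 replicate 2 or 3 (0.19 to 0.24).

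SLC40A1 (chromosome 2, 189560590 to 189583758, minus strand), ferroportin, the iron exporter, was near 0 in U87 and expressed in U251. SLC40A1 in U87 was at 0.0900, 0 and 0.0461 TPM in Untreated, 0.309 and 0.306 in the D3 libraries, 0.447 and 0.289 in D14, 0.158, 0.130 and 0.0796 in D28 and 7.70, 0.693 and 1.22 in D28WO. D28WO lay above all other U87 libraries, but 1 of its 3 libraries was far above the other two, and the gene passed the filter on low values only through this group. Its log2 fold changes at D28WO, 1.61 against Untreated and 1.51 against D28, are therefore given as a description with no test. Without D28WO replicate 1 the gene did not reach the filter, and fold changes at such levels depend on the pseudocount.

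SLC40A1 in U251 was at 21.0, 21.5 and 18.8 TPM in Untreated, 7.96, 11.7 and 9.10 in the D3 libraries, 10.1, 8.29 and 8.35 in D14, 6.75, 7.31 and 3.94 in D28 and 17.7, 11.9 and 11.3 in D28WO. Every exposed or withdrawn library lay below Untreated, and D28WO lay above D28. SLC40A1 fell at D3 (log2 fold change -1.03 ± 0.22 SE, adjusted p = 0.00165), D14 (log2 fold change -1.12 ± 0.22 SE, adjusted p = 0.00231) and D28 (log2 fold change -1.65 ± 0.22 SE, adjusted p = 3.6e-05) and rose from D28 to D28WO (log2 fold change 1.07 ± 0.22 SE, adjusted p = 0.00209). At D28WO against Untreated it did not pass the test (95% interval of the log2 difference -1.04 to -0.11).

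**Figure D4:**
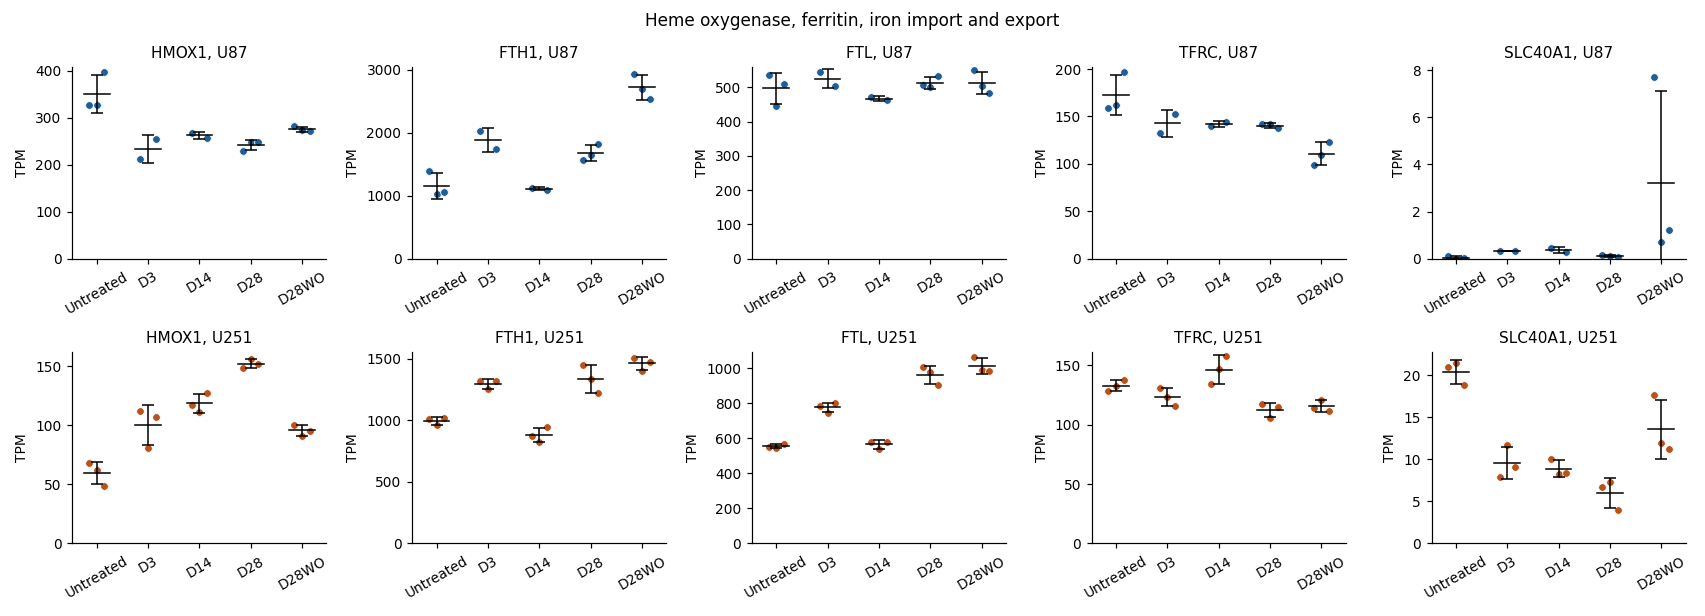
TPM of HMOX1, FTH1, FTL, TFRC and SLC40A1 (left to right) in U87 (top) and U251 (bottom) by group, 1 point per library with mean and SD as bars, the bar of U87 SLC40A1 at D28WO running below 0. HMOX1 is highest in Untreated in U87 and lowest in Untreated in U251. In the TPM shown, FTL rises beside FTH1 in U251 but not in U87, where its direction depended on the scaling.

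Genes of the surrounding pathways were taken from lists of known function. Of all genes tested, 12.4%, 4.14%, 17.2% and 28.6% were called higher in U87 at D3, D14, D28 and D28WO, and 4.28%, 1.02%, 6.55% and 13.4% lower. In U251 24.9%, 13.8%, 25.9% and 14.3% were called higher, and 16%, 7.31%, 14.7% and 13.4% lower. The counts of the lists below are to be read beside these shares, and no list was tested as a set. Of 10 genes of glutathione synthesis and reduction, 4, 1, 4 and 7 were called higher in U87 at D3, D14, D28 and D28WO, and 4, 3, 4 and 4 in U251, with 1, 0, 0 and 1 lower in U87 and 2, 1, 1 and 2 in U251. CHAC1, which degrades glutathione, rose from 28.1 ± 6.67 TPM in Untreated to 205 ± 20.0 at D28WO in U87 (log2 fold change 2.84 ± 0.22 SE, adjusted p = 2.9e-06). In U251 CHAC1 rose from 20.3 ± 2.77 to 159 ± 7.82 TPM at D3 (log2 fold change 2.91 ± 0.12 SE, adjusted p = 3.8e-10). GGT1, a glutamyltransferase that cleaves extracellular glutathione, rose in U87 at D3 (log2 fold change 0.90) and fell in U251 (-0.98). TXNRD1, thioredoxin reductase, rose in U251 at D3 (0.95). GGT5 of U87, of the same family as GGT1, rose at D28 and D28WO (1.17 and 1.94).

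Of 12 genes controlled by ATF4, the transcription factor of the amino acid and stress response, or ATF4 itself, 6, 1, 7 and 12 were called higher in U87 at D3, D14, D28 and D28WO, with none lower. In U251 12, 10, 11 and 12 were called higher, with 1 lower, at D28. The median log2 fold change of this list was 0.55, 0.28, 0.65 and 1.46 in U87 and 1.26, 0.49, 1.19 and 1.36 in U251. TRIB3, a pseudokinase induced by ATF4, rose at D28WO in U87 (log2 fold change 2.56 ± 0.24 SE, adjusted p = 1.1e-05), as did ATF3, a repressor of SLC7A11 (log2 fold change 2.41 ± 0.13 SE, adjusted p = 1.3e-07). SESN2 and PSAT1, of stress signalling and serine synthesis, rose at D3 in U251 (log2 fold change 2.60 ± 0.12 SE, adjusted p = 1.9e-09 and log2 fold change 1.86 ± 0.089 SE, adjusted p = 2e-09) and fell from D3 to D14 (-1.51 and -1.51). CHAC1 is on this list and on the glutathione list.

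Of 12 tested genes of NRF2 control and NRF2 targets, 2, 0, 1 and 7 were called higher and 2, 1, 2 and 1 lower in U87 at D3, D14, D28 and D28WO. In U251 8, 4, 9 and 8 were called higher and 0, 0, 0 and 2 lower. SLC48A1, a heme transporter, rose in U87 at D28WO (log2 fold change 1.10 ± 0.12 SE, adjusted p = 2.8e-05), as did GCLC, the catalytic subunit of glutathione synthesis (log2 fold change 0.70 ± 0.072 SE, adjusted p = 1.9e-05). OSGIN1, an NRF2 target, rose in U251 at D28 (log2 fold change 1.47 ± 0.16 SE, adjusted p = 8.3e-06), as did BACH1, a heme-sensing repressor of HMOX1 (log2 fold change 0.83 ± 0.20 SE, adjusted p = 0.00427).

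Among 10 other genes of lipid radical defence, 1, 1, 2 and 2 were called higher and 1, 1, 3 and 3 lower in U87, and 2, 3, 3 and 3 higher and 2, 0, 4 and 2 lower in U251. Several of these counts lie near the share of all genes. GCH1, which makes the radical-trapping cofactor tetrahydrobiopterin, rose in U87 from 10.7 ± 1.39 TPM to 51.7 ± 5.96 at D3 (log2 fold change 2.18 ± 0.13 SE, adjusted p = 8.2e-07) and 95.3 ± 3.07 at D28WO, and stood at 12.3 ± 0.122 at D14. In U251 GCH1 rose from 4.66 ± 0.779 to 50.6 ± 1.59 TPM at D28 (log2 fold change 3.20 ± 0.12 SE, adjusted p = 9.6e-11). Of 12 genes of lipid peroxidation, 10 were tested in U87 and 8 in U251, with 1, 0, 5 and 3 higher and 1, 0, 0 and 1 lower in U87, and 1, 1, 2 and 0 higher and 5, 1, 3 and 3 lower in U251. ALOXE3, an epidermal lipoxygenase, rose at D3 in U87 (1.41) and U251 (3.94). SCD, the stearoyl-CoA desaturase that makes monounsaturated lipids, fell in U251 at D3 (log2 fold change -1.22 ± 0.054 SE, adjusted p = 9e-10). Of 4 tested partner transporters of SLC3A2, 1, 0, 0 and 2 were called higher in U87 and 2, 3, 2 and 1 in U251, with none lower. SLC7A5, the large neutral amino acid transporter, rose at D28WO in U87 (0.92) and U251 (1.56).

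Of 10 genes of iron uptake, 9 were tested in U87 and 10 in U251, with 5, 0, 4 and 5 higher and 1, 0, 1 and 2 lower in U87, and 5, 3, 4 and 3 higher and 4, 2, 3 and 3 lower in U251. TF, transferrin, fell in U251 from 138 ± 5.54 TPM in Untreated to 31.8 ± 5.38 at D28 (log2 fold change -2.09 ± 0.16 SE, adjusted p = 1.7e-07) and stood at 219 ± 4.23 at D28WO, a rise from D28 (log2 fold change 2.76 ± 0.16 SE, adjusted p = 7.9e-08). SLC39A8, a zinc and iron importer, rose in U251 at D28 (log2 fold change 1.47 ± 0.13 SE, adjusted p = 9.5e-07) and fell from D28 to D28WO (log2 fold change -1.95 ± 0.13 SE, adjusted p = 2.6e-07). LCN2, lipocalin 2, was listed at 0 in all 3 Untreated U87 libraries and at 18.8, 20.0 and 22.4 TPM at D28WO. SLC25A28 and SLC11A2, iron transporters of mitochondria and endosomes, rose in U87 at D28WO (0.88 and 0.81).

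Of 8 genes of iron storage and release, 7 were tested in each line, with 0 higher and 1, 0, 1 and 3 lower in U87, and 2, 0, 1 and 1 higher and 0, 0, 0 and 1 lower in U251. BLVRB, a biliverdin reductase downstream of heme oxygenase, fell in U87 at D28WO (log2 fold change -0.52 ± 0.077 SE, adjusted p = 0.000249) and rose in U251 (log2 fold change 0.63 ± 0.071 SE, adjusted p = 1.5e-05). HMOX2, the constitutive heme oxygenase, fell in U87 at D28WO (-0.59). Of 8 genes of iron export and its control, 6 were tested in U87 and 8 in U251, with 2, 0, 2 and 5 higher in U87 and none lower, and 1, 1, 1 and 0 higher and 4, 2, 5 and 3 lower in U251. HEPH, a ferroxidase that works with ferroportin, and ACO1, which as iron regulatory protein 1 controls TFRC and ferritin mRNA, fell in U251 at D3 (log2 fold change -1.03 ± 0.064 SE, adjusted p = 2.7e-08 and log2 fold change -0.91 ± 0.094 SE, adjusted p = 3.7e-06). CP, ceruloplasmin, rose in U87 at D3 (1.87), and BMP6, an inducer of hepcidin, at D28WO (2.01).

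**Figure D5:**
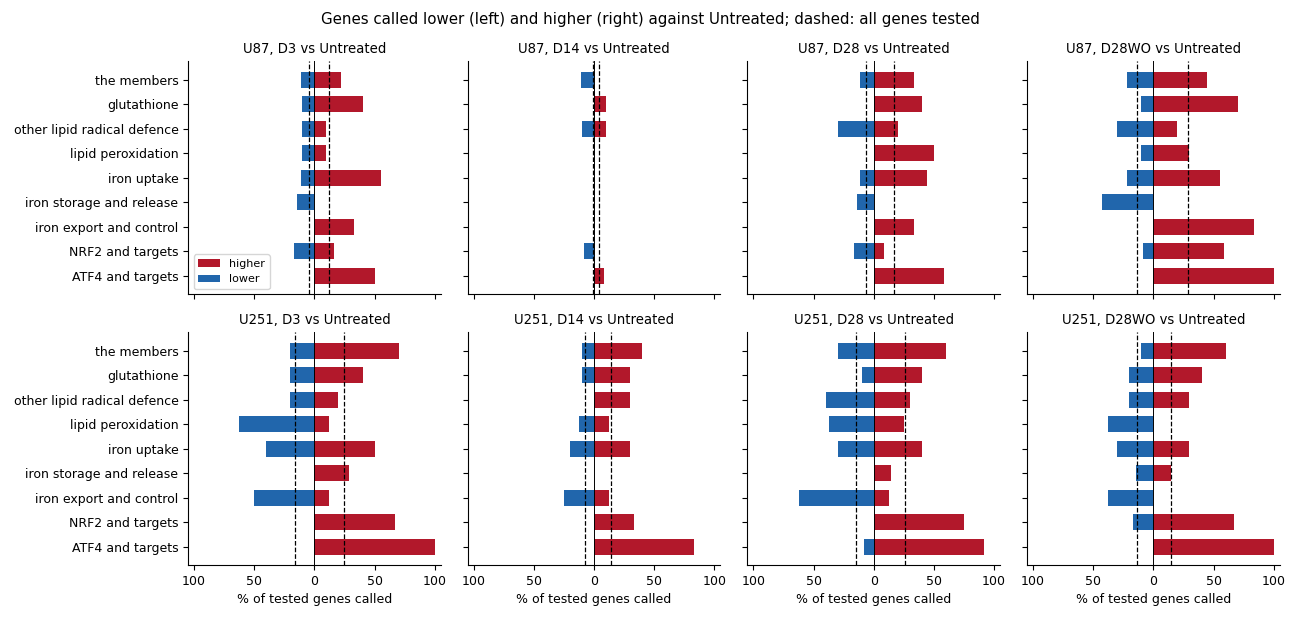
Share of tested genes of each list (rows) called higher (bars to the right) or lower (bars to the left) against Untreated, in % on the x axis, in U87 (top) and U251 (bottom) at D3, D14, D28 and D28WO, with dashed lines at the share of all genes tested and U87 SLC40A1 left out of the members. The ATF4 list has 12 of 12 genes higher at D28WO in both lines, and among the groups of each line the share of all genes called is lowest at D14.

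The identity markers of the lines moved beside these results. Of 8 tested glial and glioma markers, 8, 7, 8 and 7 were called lower in U251 at D3, D14, D28 and D28WO, and their summed level was 4017 to 4100.0 TPM in Untreated, 1605 to 1925 in D3, 2773 to 3182 in D14, 1740.3 to 1952 in D28 and 2298 to 2359.9 in D28WO. GFAP fell in U251 at D28 (log2 fold change -2.37 ± 0.091 SE, adjusted p = 1.7e-10) and PDGFRA at D3 (log2 fold change -2.84 ± 0.08 SE, adjusted p = 7.6e-12). In U87 0, 0, 3 and 3 were called higher and 1, 0, 0 and 3 lower, and the sum was 2012 to 2233 TPM in Untreated, 1839.8 to 1882 in D3, 1913 to 2012 in D14, 1886 to 2032 in D28 and 1588 to 1746 in D28WO. The 7 markers of leukocytes, endothelium, epithelium and oligodendrocytes in U87 summed to 324 to 384 TPM in Untreated, 295 to 302 in D3, 273 to 311 in D14, 287 to 458 in D28 and 219 to 249 in D28WO, most of it CD68, a lysosomal protein, with at most 14.4 TPM in any U87 library without CD68. In U251 they summed to 161 to 167 TPM in Untreated, 114 to 169 in D3, 114 to 129 in D14, 168 to 196 in D28 and 136 to 158 in D28WO, and reached 45.9 TPM without CD68. Of 4 tested, 0, 0, 0 and 2 were called lower in U87, and 1, 0, 0 and 1 higher and 1, 0, 0 and 0 lower in U251. AIF1 was listed at 0 in every U87 library and PTPRC reached 1.47 TPM in U87 and 1.36 in U251. The part of these markers in the changes of the members was not tested.

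Over the libraries of a line, the genes most like SLC7A11 among 12740 compared, by the lower of the Pearson correlations of log2(TPM + 1) in U87 (n = 13) and U251 (n = 15), were IQCB1 (0.92 and 0.93), PPP1R3C (0.96 and 0.91) and POT1 (0.91 and 0.92). For HMOX1 they were CKS1B (0.90 and 0.85), BOLA2-SMG1P6 (0.89 and 0.84) and SH2B3 (0.83 and 0.93), and for TFRC they were MAPRE1 (0.87 and 0.91), HNRNPR (0.96 and 0.87) and LMNB1 (0.87 and 0.90). These libraries share groups and scaling, so the correlations describe likeness of level only.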

How the data were processed

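RNA of U87 and U251 cells was sequenced from TruSeq libraries. Per the submitters' processing notes and the study's methods, reads were checked with FastQC, trimmed with Trim Galore, aligned to GRCh38 with STAR and counted with featureCounts, and the authors deposited the values as TPM, in a table per line. How TPM was computed, the annotation and the strand setting are not given in the sources used here. The TPM of each library have a fixed sum, so they do not give the depth of a library, for which the study's methods state only a minimum, and the number of libraries sets the precision. The 2 columns of per-sample values that share a name were used in no step. The study's own tests need counts, which were not used here. Genes averaging 0.5 TPM or more in a line were tested as log2(TPM + 1) with limma 3.58.1 in R 4.3.3 (trend, 5 groups in 1 fit), within a line only, with Benjamini-Hochberg adjustment and a threshold of 0.05. The procedure was tested on simulated data. Symbols, coordinates and pseudogenes follow the tables and GENCODE, promoter sequences are RefSeq's (GRCh38.p14), and other software was Python 3.11.15.

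Members, gene lists and tests were chosen with earlier results of these data known. Other named genes are, for each list and line, up to 3 called genes with the largest absolute change against Untreated, plus the IFN-γ check genes, the cell type markers, and the 3 genes most like SLC7A11, HMOX1 and TFRC that average 5 TPM or more in both lines. Alternatives were quantile normalization, median-ratio size factors, a pseudocount of 0.1, no filter, a filter at 1 TPM, only the groups compared, a replicate block, a 2-fold limit, each library left out, and, chosen after seeing the data, the D14 or the D28WO libraries or SLC40A1 in U87 left out. Some items of the gene lists are not reported here.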

Additional observations from a re-analysis of the deposited data

Results flagged for a closer look

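In the members listed here every library of U87 moved one way from the reference group and every library of U251 the other way. The lines were normalized separately, and the difference between them was not tested. Compared groups did not overlap in 32.6% to 53.2% of all genes in U87, by comparison, and in 36.7% to 51.3% in U251. The share of all genes that moved in opposite directions in this way is not given here. Whether the members exceed that share was not tested. Values are log2 fold changes, U87 first. HMOX1 differed at D3 (-0.58 and 0.74), D14 (-0.41 and 0.99), D28 (-0.53 and 1.35) and D28WO (-0.34 and 0.68) against Untreated, and all 8 of these values were called. HMOX1 also moved apart at D28 against D14 (-0.12 and 0.36) and at D28WO against D28 (0.19 and -0.67), of which only the U251 fall at D28WO was called. SLC40A1 differed at D3 (0.32 and -1.03), D14 (0.39 and -1.12) and D28WO (1.61 and -0.58) against Untreated, where U87 levels outside D28WO stayed under 0.45 TPM and the gene passed the filter on low values only through D28WO. The U251 values at D3 and D14 were called and that at D28WO was not. GPX4 differed at D28WO against Untreated (-0.14 and 0.069) and at D14 against D3 (-0.21 and 0.13), with no value called. With quantile normalization the U87 values of SLC40A1 at D3 and GPX4 at D28WO turned (-0.075 and 0.074).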

How the results depend on the processing

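Exposure and time in culture cannot be told apart at D14, D28 and D28WO against Untreated, nor at D3 if Untreated was a baseline before treatment. TPM do not give each library's depth, and U87 rests on 2 libraries at D3 and D14. Of 22 called member values in U87 (SLC40A1 left out), 17 kept direction and significance after quantile normalization, 14 after scaling by median-ratio size factors, 22 with a pseudocount of 0.1, 19 without a filter and 15 in fits of only the groups compared. Of 42 in U251 the numbers were 39, 41, 42, 41 and 41. Without a filter, and in fits of only the groups compared, fold changes are those of the main fit, so only significance could change. The cause of the changes was not tested.

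Counts of members called in U87 were, at D3 against Untreated (3 in the report), 1 with median-ratio size factors, 1 with only the groups compared and 0 with the 2-fold limit. At D14 against Untreated (1) the count was 0 with quantile normalization, median-ratio size factors, no filter, only the groups compared, the 2-fold limit or the D28WO libraries left out. At D28 against Untreated (4) it was 2 with only the groups compared and 0 with the 2-fold limit, and at D28WO (6, or 7 if SLC40A1 is counted) 3, or 4 with SLC40A1, under that limit. At D14 against D3 (1) it was 2 after quantile normalization, and 0 under median-ratio size factors, only the groups compared or the 2-fold limit. At D28 against D14 (1) it was 0 with the last 3 of these, and at D28WO against D28 (6, or 7 if SLC40A1 is counted) 1, or 2 with SLC40A1, under the 2-fold limit. In U251 the 2-fold limit left 3 at D3 (of 9), 2 at D14 (of 5), 4 at D28 (of 9) and 1 at D28WO (of 7) against Untreated, 0 at D14 against D3 (of 4), 0 at D28 against D14 (of 4) and 1 at D28WO against D28 (of 4).

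With each library left out in turn, U87 counts ranged from 1 to 3 at D3, 0 to 1 at D14, 3 to 4 at D28 and 6 to 6 at D28WO (6 to 7 if SLC40A1 is counted) against Untreated, and 0 to 1, 0 to 1 and 5 to 6 (5 to 7) at D14 against D3, D28 against D14 and D28WO against D28. U251 counts ranged from 9 to 9, 4 to 5, 7 to 9 and 6 to 7, and 3 to 5, 4 to 4 and 4 to 5. Where an arm of U87 was left with 1 library, it is assumed to vary like the other groups. Of the called values, only U251 GPX4 at D28 turned direction (0.0094 with quantile normalization). Of the values not called, 41 in U87 and 28 in U251, 8 and 5 turned under quantile normalization, 7 and 3 when scaled by median-ratio size factors, and 3 and 0 with the replicate block, as did 19 of 208 and 10 of 168 refits with a library left out. Quantile normalization gave -0.17 and -0.075 for U87 SLC7A11 and SLC40A1 at D3 and 0.074 for U87 GPX4 at D28WO, all against Untreated. U87 FTL against Untreated was among the values that turned. With median-ratio size factors FTL was -0.11, -0.14 and -0.18 in the D3, D28 and D28WO comparisons, and with quantile normalization 0.17 in that of D14. With libraries left out it ranged from -0.029 to 0.10 (D28) and from -0.030 to 0.10 (D28WO).

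Replicate numbers carry no stated pairing, also for D28 and D28WO, which by the study's methods came from cultures split at day 14. Same-numbered libraries had correlations of deviations from the group means of -0.058 to 0.047 in U87 and -0.037 to 0.048 in U251, and 8 of 13 U87 and 8 of 15 U251 libraries correlated more, on average, with their own number. With the replicate block the counts were 2 at D3 against Untreated in U87 and 6 at D14 in U251, and 20 of 22 and 41 of 42 called values were kept. Every U251 group holds the same replicate numbers, so the block could not change a fold change there.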
